A study of Mus musculus with 2 samples.

Results

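Intestinal iron handling was described through 7 genes: Cybrd1, Slc11a2, Heph, Slc40a1, Tfrc, Fth1 and Ftl1. They were listed by symbol for their textbook roles in iron uptake, storage and export, and all 7 were among the 27998 genes of the deposited matrices. Cells of the jejunal crypt were taken from 2 males aged 12 months with a whole-body deletion of miR-375 (375KO; strain label C57BL6/2J). The knockout was made with CRISPR/Cas9 in hybrid embryos and bred onto the B6 albino background. Each mouse gave 1 droplet library, called replicate 1 and replicate 2, and crypts were dispersed with dispase. The wild-type libraries of the study were not used here, so nothing below compares genotypes. The authors annotated 10 cell types: stem, transit-amplifying (TA), enterocyte, goblet progenitor, goblet, secretory progenitor, enteroendocrine (EEC), Paneth, tuft and intraepithelial lymphocyte (IEL).

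Dietary iron crosses the enterocyte in steps. The reductase encoded by Cybrd1 turns ferric into ferrous iron at the brush border, Slc11a2 (DMT1) carries it into the cell, and Slc40a1 (ferroportin) carries it out at the basal side, where the oxidase hephaestin (Heph) prepares it for plasma transferrin. Iron that is not exported is kept in ferritin, a shell of heavy (Fth1) and light (Ftl1) chains, and Tfrc, the transferrin receptor, takes up iron from the blood side, above all in dividing cells. Several of these mRNAs carry an iron-responsive element, a short hairpin bound by iron regulatory proteins when iron is scarce: in a 5′ UTR the bound protein blocks translation, and in the 3′ UTR of Tfrc it protects the mRNA from decay.

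These hairpins are shown because they set apart Tfrc, whose RNA level is known to follow iron, from the members known to be controlled at translation, which RNA counts do not measure. The pattern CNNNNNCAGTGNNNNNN was searched on the sense strand of GENCODE M21 protein-coding transcripts (GRCm38, mm10), with the 5 bases before and the 5 bases after the loop required to pair, G with T included. It occurred in the 5′ UTR of 28 of 20890 genes (0.134%) and in the 3′ UTR of 127 of 20998 genes (0.605%). In each sequence below the loop is in capitals, with the paired stem and 6 flanking bases around it.
Fth1, 5′ UTR, chr19:9982732-9982760, plus strand: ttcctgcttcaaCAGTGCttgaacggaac
Ftl1, 5′ UTR, chr7:45459779-45459807, minus strand: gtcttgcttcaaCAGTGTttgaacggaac
Slc40a1, 5′ UTR, chr1:45925465-45925493, minus strand: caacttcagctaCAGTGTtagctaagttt
Tfrc, 3′ UTR, chr16:32631219-32631247, plus strand: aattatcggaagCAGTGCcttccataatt
Tfrc, 3′ UTR, chr16:32631598-32631626, plus strand: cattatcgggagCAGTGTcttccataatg
Tfrc, 3′ UTR, chr16:32631663-32631691, plus strand: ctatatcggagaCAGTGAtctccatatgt
Tfrc, 3′ UTR, chr16:32631710-32631738, plus strand: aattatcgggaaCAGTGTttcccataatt
Both ferritin chains and Slc40a1 thus held 1 match each, in the 5′ UTR. The 4 matches of Tfrc all lay in the last of its 19 exons. No match to these letters was found in the UTRs of Cybrd1, Slc11a2 or Heph. The pattern fixes the loop and requires 5 unbroken pairs, so a hairpin of another form would be missed. The lack of a match is therefore no sign that these genes lack such an element or that their RNA does not follow iron.

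The libraries kept 2082 and 1193 cells of 7665 and 1251 barcodes, with 44017234 and 22163354 UMIs (molecular tags that count captured RNA molecules) and medians of 16475 and 15232 UMIs per cell. They shared no kept barcode. Median mitochondrial reads per cell were 10.2% in replicate 1 and 5.55% in replicate 2. Markers of the annotated types were highest in their own type in both mice, except 1 of 3 TA markers. Goblet progenitors and secretory progenitors had no marker list, so their labels were not checked in this way. Within the annotated IEL, the 22 cells of the authors' cluster 14 in replicate 1 held 5048 UMIs per 1000000 UMIs (CPM) of 7 macrophage markers and 469 CPM of 4 IEL markers, so their label went against their markers. Nearly all of that came from Lyz2, with 479 UMIs over the IEL of replicate 1, and Cd68 with 24, while Adgre1, C1qa and Csf1r had 1 or 2 UMIs each and C1qb and C1qc were at 0. Erythroid markers were at 0 or nearly so in every type, with a summed level of at most 17.7 CPM.

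**Figure D1:**
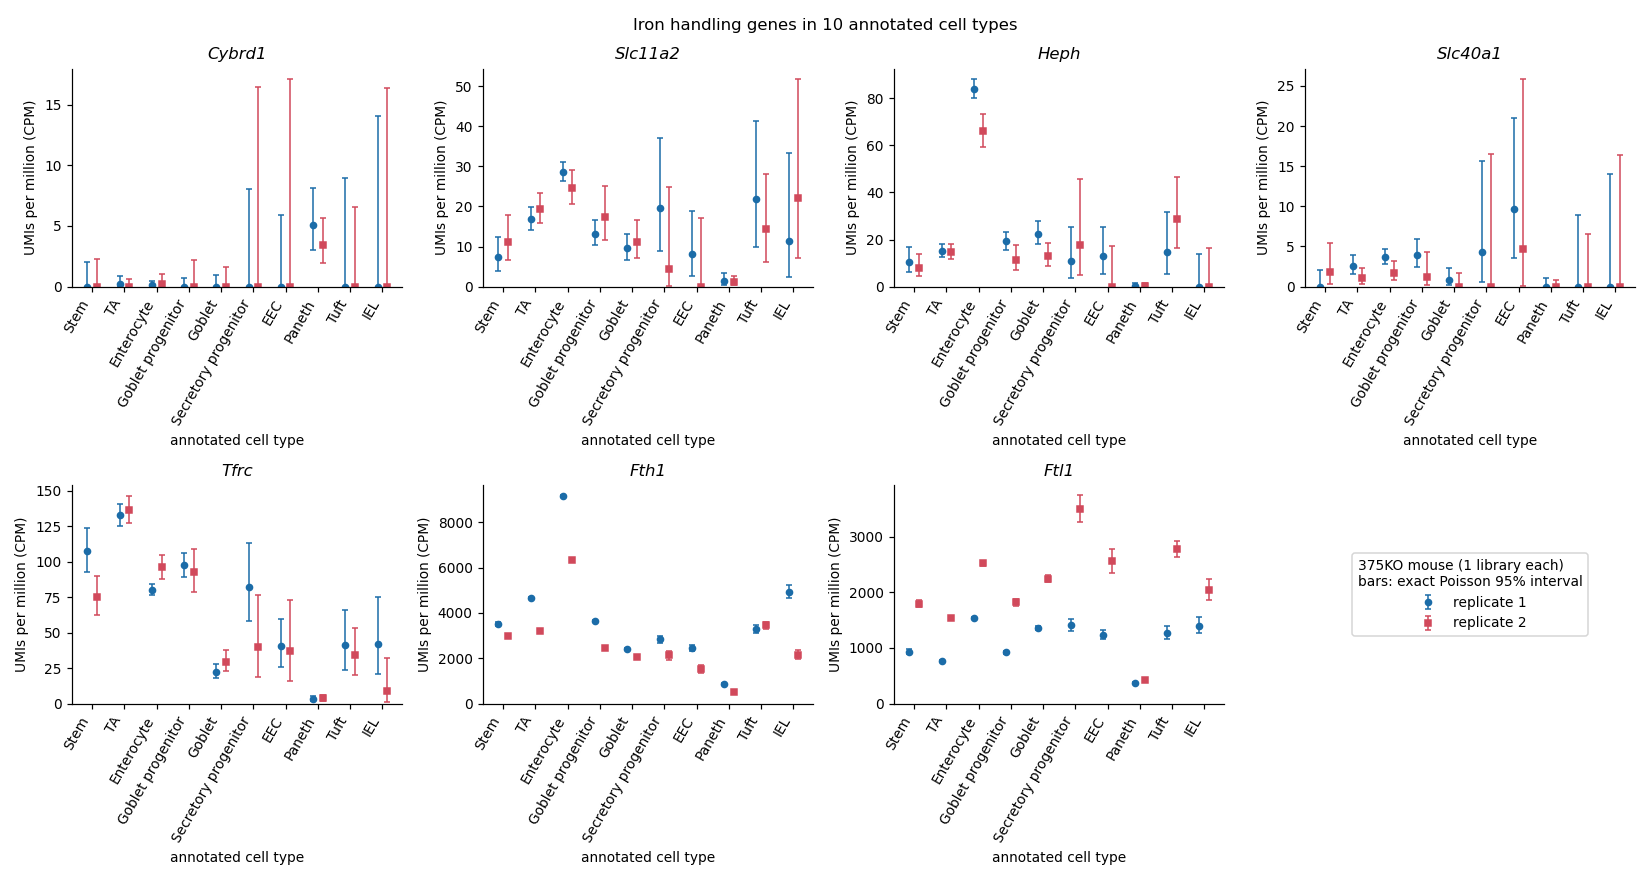
Level (CPM, UMIs per 1000000 UMIs, linear axes from 0) of the 7 genes in the 10 annotated cell types, with a point for each 375KO mouse and exact Poisson 95% intervals. Heph, Slc11a2 and Fth1 were highest in enterocytes in both mice, Tfrc in TA cells, and Cybrd1 in Paneth cells, while Ftl1 was higher in replicate 2 in every type.

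Hephaestin mRNA was highest in enterocytes. The Heph level in enterocytes was 84.0 CPM in replicate 1 and 66.0 CPM in replicate 2, or 75.0 ± 12.7 CPM (SD, n = 2 mice). The next type, tuft cells, stood at 14.5 and 28.6 CPM, and the values of tuft, goblet, goblet progenitor, TA and secretory progenitor cells overlapped one another. Stem cells were at 10.7 and 8.10 CPM, just under the 10.9 CPM of secretory progenitors in replicate 1, which rested on 5 UMIs. EEC, at 12.9 and 0 CPM, overlapped stem cells. The 2 enterocyte values thus lay above every other type in either mouse. In Paneth cells Heph gave only 3 UMIs in all, and no UMI was seen in 0 of 50 and 0 of 18 IEL, which allows a share of cells with a UMI of up to 6% and 16.7%. Intervals and limits here cover counting error only. After thinning to 5000 UMIs per cell, 33.1% of enterocytes in replicate 1 (Clopper-Pearson 95% interval 30.1 to 36.2%) and 29.6% in replicate 2 (25.05 to 34.4%) held a Heph UMI, against 69.7% and 51.8% before thinning. Again no IEL did, but only 11 and 18 of them remained, which allows up to 27.3% and 16.7%. The median depths before thinning were 16975 and 13405 UMIs in enterocytes and 4110 and 10226 UMIs in IEL.

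Slc11a2, the importer of ferrous iron, was spread more evenly over the types. Its level in enterocytes was 28.6 CPM in replicate 1 and 24.5 CPM in replicate 2 (26.6 ± 2.91, SD, n = 2). TA cells followed at 16.8 and 19.4 CPM, and goblet progenitors gave 13.2 and 17.4 CPM. Enterocytes were above every other type in both mice. From TA cells down to EEC no type was separated from the next in the order. By mean share of UMIs Paneth cells were last, at 1.42 and 1.15 CPM. The share of thinned enterocytes with a Slc11a2 UMI was 12.0% in each mouse, and that of the few thinned IEL was 9.09% (1 of 11 cells) and 16.7% (3 of 18 cells), so the shares did not tell enterocytes from lymphocytes at this depth.

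Cybrd1 and Slc40a1 were close to the limit of detection. Cybrd1 gave 39 UMIs in 3275 cells, and 33 of them came from Paneth cells. The Cybrd1 level there was 5.12 CPM in replicate 1 (18 UMIs, exact Poisson 95% interval 3.03 to 8.09) and 3.44 CPM in replicate 2 (15 UMIs, 1.92 to 5.67). Enterocytes held 3 and 1 UMIs of Cybrd1, or 0.155 and 0.187 CPM, although over both mice together they carried the most UMIs of any type. The brush-border reductase of textbooks was therefore all but undetected in the annotated enterocytes of these jejunal crypt preparations. Other segments of the intestine and villus preparations were not sampled, so nothing is said of enterocytes there. Cybrd1 was seen in 14 of 78 and 11 of 54 Paneth cells (17.9% and 20.4%), whose median depths were 44684 and 80820 UMIs. After thinning, 2 of 78 and 1 of 54 Paneth cells kept a Cybrd1 UMI, against 2 of 930 and 0 of 382 enterocytes.

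Slc40a1, the exporter, gave 146 UMIs, 80 of them in enterocytes. Its level was 3.67 CPM (71 UMIs, 2.86 to 4.62) and 1.68 CPM (9 UMIs, 0.769 to 3.19) in enterocytes, 3.91 and 1.20 CPM in goblet progenitors, and 2.61 and 1.05 CPM in TA cells. These types were not separated. EEC ranked first at 9.67 and 4.64 CPM, but on 6 and 1 UMIs. Paneth, tuft and IEL had none, with limits (3 UMIs) of 0.687 to 0.853 CPM in Paneth cells, 5.36 to 7.26 CPM in tuft cells and 11.4 to 13.3 CPM in IEL. Neither Cybrd1 nor Slc40a1 passed the filter on low counts, so neither was tested in the main fit described below. With no such filter all 7 members were tested. In enterocytes against the mean of the other epithelial types 6 members were then called, instead of 5. Replicate 1 had the higher Slc40a1 level in 6 of the types in which it was seen and replicate 2 in 1.

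The Tfrc level was highest in TA cells, at 133 CPM in replicate 1 and 137 CPM in replicate 2 (135 ± 2.57, SD, n = 2). Goblet progenitors stood at 97.3 and 93.0 CPM, stem cells at 108 and 75.4 CPM, and enterocytes at 80.3 and 96.1 CPM. TA cells were above all of these in both mice, and the other 3 overlapped. Secretory progenitors, at 82.5 and 40.2 CPM, varied most between the mice among the epithelial types. EEC (40.3 and 37.1 CPM), tuft (41.1 and 33.9 CPM) and goblet cells (22.5 and 29.5 CPM) were lower. By share of UMIs Paneth cells were last, at 3.13 and 3.67 CPM. After thinning, 44.7% and 44.3% of TA cells held a Tfrc UMI, against 39.7% and 26.5% of stem cells, 25.2% and 35.3% of enterocytes, and 2.56% and 0% of Paneth cells. For comparison, 1 of 11 and 0 of 18 thinned IEL held one.

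Ferritin mRNA was abundant everywhere, with 330720 UMIs of Fth1 and 89871 of Ftl1. The Fth1 level in enterocytes was 9142 CPM in replicate 1 and 6323 CPM in replicate 2 (7732 ± 1993, SD, n = 2). TA cells gave 4654 and 3202 CPM, stem cells 3491 and 2964 CPM, and goblet cells 2403 and 2050 CPM. Enterocytes were above every other type in both mice, and from TA cells to EEC each type overlapped the next in the order. Paneth cells were lowest at 861 and 508 CPM. The Ftl1 level was much flatter across types. It was 1532 and 2519 CPM in enterocytes, 766 and 1540 CPM in TA cells, 1403 and 3494 CPM in secretory progenitors, and 366 and 421 CPM in Paneth cells. Apart from Paneth cells at the bottom, no type was separated from its neighbour in the order. Ftl1 shares 38.2% of the 60-base stretches in the last 300 bases of its mRNA with the pseudogene Ftl1-ps1 and 20.7% with the annotated gene Gm22133. Neither of these is among the genes of the matrices, and how their reads were assigned was not tested. No such stretch of the other 6 genes was found in another gene's transcript.

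The 2 mice differed in ferritin in opposite directions for the 2 chains. Ftl1 was higher in replicate 2 in 10 of 10 types, with a ratio of replicate 2 to replicate 1 from 1.15 to 2.49 (median 1.94). Fth1 was higher in replicate 1 in 9 of 10 types, tuft cells being the exception, with a ratio from 0.438 to 1.04. The heavy chain made up 63.9 to 85.9% of ferritin UMIs in replicate 1 and 37.4 to 71.5% in replicate 2, and was 14.1 to 29.1 percentage points higher in replicate 1 in 10 of 10 types. With 1 library per mouse no test between them is possible. The mitochondrial share also differed between the libraries, as given above, and its part in the ferritin difference was not tested.

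The order of types by heavy chain share held in each mouse at its ends. Enterocytes (85.7% and 71.5%, mean 78.6% ± 10.0, SD, n = 2) and TA cells (85.9% and 67.5%) took the first 2 places in both libraries. Goblet cells (63.9% and 47.8%), secretory progenitors (66.9% and 37.8%) and EEC (66.3% and 37.4%) took the last 3. Stem cells (78.9% and 62.3%) and goblet progenitors (79.8% and 57.3%) came next after the first 2. Within each mouse the heavy chain share was thus highest in enterocytes and TA cells and lowest in goblet cells, secretory progenitors and EEC. Because both chains are counted in the same cells, this share does not depend on how totals are scaled.

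**Figure D2:**
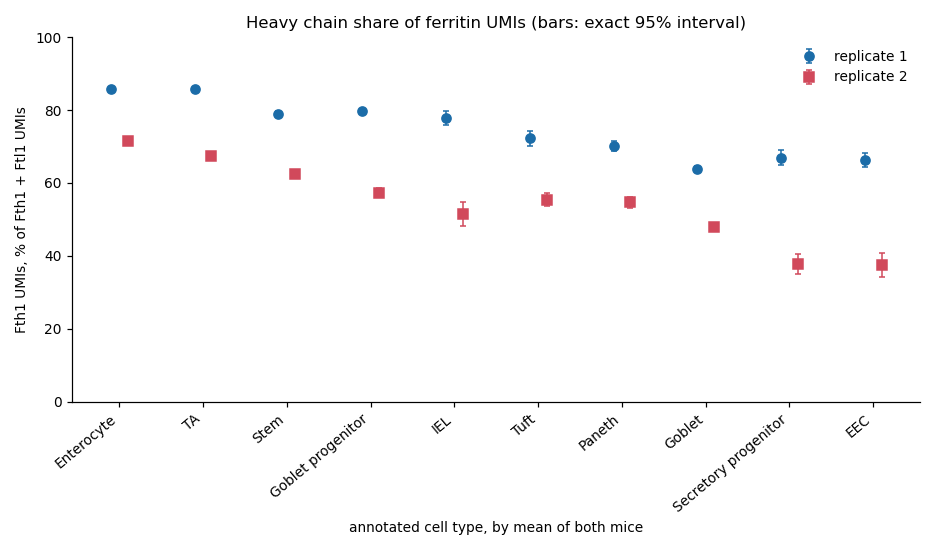
Fth1 UMIs as a percent of Fth1 plus Ftl1 UMIs (axis 0 to 100%) in each annotated type and 375KO mouse, with exact 95% binomial intervals and types ordered by the mean of both mice. Replicate 1 lies above replicate 2 in all 10 types, and enterocytes and TA cells lead in both.

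UMI counts summed per mouse and type were then compared in 1 edgeR fit over the 9 epithelial types (18 sums, 11013 genes tested), with p adjusted over all genes tested. The authors drew the types from these very cells, so the tests describe how far the annotated classes stand apart. Scaling here was by TMM factors, and log2 fold changes are given with their standard error (SE) and within each mouse.

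Enterocytes held more of all 5 members tested than the mean of the 8 other epithelial types did. Of all genes tested, 54.5% passed in either direction and 31.3% were higher, so being called is common in this comparison and the sizes carry more than the count. Heph was highest, with a log2 fold change of 3.01 (SE 0.17, edgeR adjusted p = 6.2e-16; 3.18 and 3.10 within the mice). Fth1 followed at 1.64 (SE 0.11, adjusted p = 8.8e-14; 1.81 and 1.46) and Slc11a2 at 1.51 (SE 0.19, adjusted p = 5.9e-08; 1.56 and 1.74). Tfrc was higher by 0.99 (SE 0.14, adjusted p = 3.0e-07; 0.91 and 1.11). Ftl1 differed least, by 0.51 (SE 0.13, adjusted p = 0.0011; 0.72 and 0.29). The median of the 5 was 1.51, against 0.03 over all genes tested. The Ftl1 call was lost without the mouse term (adjusted p = 0.52) and under a stricter cell filter (adjusted p = 0.076).

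Against TA cells, their neighbours on the absorptive lineage, enterocytes held more Heph, Fth1, Ftl1 and Slc11a2, and Tfrc did not pass the threshold. Thus 4 of 5 members were called, in a comparison that called 51.7% of all genes and 29.1% as higher. The log2 fold change of Heph was 2.75 (SE 0.22, edgeR adjusted p = 4.8e-12). It was 1.39 for Fth1 (SE 0.18, adjusted p = 8.6e-08), 1.27 for Ftl1 (SE 0.18, adjusted p = 5.9e-07) and 0.99 for Slc11a2 (SE 0.22, adjusted p = 3.5e-04). Tfrc differed by -0.21 (SE 0.17, adjusted p = 0.32). Tfrc was called lower in enterocytes after thinning (-0.46, adjusted p = 0.048; median over genes -0.05) and per UMI total with no scaling factors (-0.62, adjusted p = 0.0076; median over genes -0.35). Without the mouse term, Slc11a2 (adjusted p = 0.066) and Ftl1 (adjusted p = 0.19) were no longer called.

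Stem and TA cells together, against the mean of the other 7 epithelial types, held more Tfrc and less Ftl1. Here 23% of all genes passed as higher and 17.6% as lower, 40.5% in either direction. Tfrc was higher by a log2 fold change of 1.13 (SE 0.12, edgeR adjusted p = 1.0e-08; 1.21 and 1.06 within the mice). Ftl1 was lower, at -0.81 (SE 0.11, adjusted p = 3.8e-07; -0.85 and -0.75). Fth1 at 0.00 (SE 0.10), Slc11a2 at -0.10 (SE 0.24) and Heph at -0.43 (SE 0.26) did not pass. These 3 depended on the setting. Fth1 was called higher per UMI total (0.52, adjusted p = 2.5e-05) and after thinning (0.24, adjusted p = 0.048), settings that moved the median of all genes to 0.54 and 0.25, and was at -0.01 with RLE factors. Heph was called lower with Paneth sums left out (-0.77, adjusted p = 0.0087) and after thinning (-0.93, adjusted p = 0.038), and was at 0.06 per UMI total. Slc11a2 was at 0.41 per UMI total, and the mice differed in its sign, at -0.46 in replicate 1 and 0.79 in replicate 2. Without the mouse term the Ftl1 call was lost (adjusted p = 0.15).

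**Figure D3:**
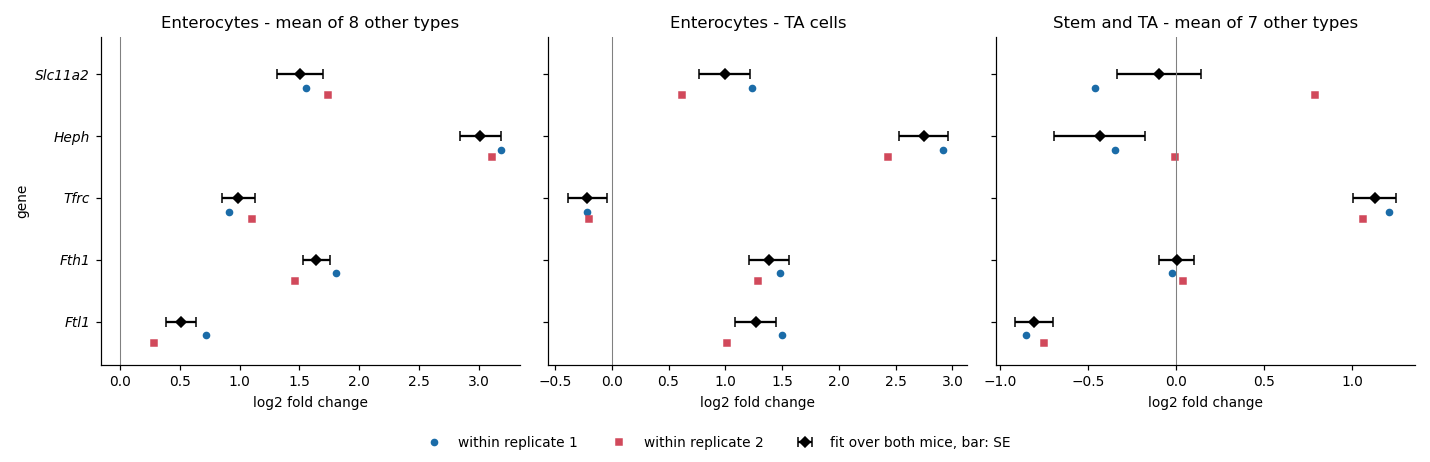
Log2 fold changes of the 5 tested members in 3 comparisons of annotated types, with a diamond for the edgeR fit over both mice (bar, SE) and smaller points for the value within each 375KO mouse. Heph lies farthest from 0 in the enterocyte comparisons, and Tfrc in that of stem and TA cells.

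Each remaining type was also set against the mean of the other epithelial types. The share of all genes called in either direction was 25.6% for stem, 32.8% for TA, 12.1% for goblet progenitor, 29.2% for goblet, 4.78% for secretory progenitor, 21.6% for EEC, 27% for Paneth and 16% for tuft cells. Tfrc was called in 7 of these 8 comparisons. It was higher in TA cells by a log2 fold change of 1.23 (edgeR adjusted p = 1.7e-08), in stem cells by 0.75 (adjusted p = 6.1e-04) and in goblet progenitors by 0.68 (adjusted p = 0.0018). It was lower in Paneth cells at -0.97, tuft cells at -0.96, EEC at -0.93 and goblet cells at -0.90, with adjusted p from 2.5e-04 to 0.011. Secretory progenitors, at 0.13 (adjusted p = 0.89), were the exception. The 4 lower calls were less firm: those of Paneth, tuft and goblet cells were lost after thinning (adjusted p = 0.47, 0.16 and 0.18), and those of EEC and tuft cells per UMI total (adjusted p = 0.54 and 0.37).

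Among the other members, goblet cells held more Heph, by 0.80 (SE 0.25, edgeR adjusted p = 0.014), and more Ftl1, by 0.42 (SE 0.13, adjusted p = 0.012). Ftl1 was lower in TA cells at -0.92 (adjusted p = 8.8e-06), in goblet progenitors at -0.61 (adjusted p = 0.0030) and in stem cells at -0.49 (adjusted p = 0.0089). Fth1 was lower in EEC at -1.19 (adjusted p = 1.7e-07) and in secretory progenitors at -0.61 (adjusted p = 0.0062). The goblet Heph call was lost after thinning (adjusted p = 0.34), with Paneth sums left out (adjusted p = 0.056) and without the mouse term (adjusted p = 0.12). Slc11a2 passed in none of the 8. Of the 28 member calls over all comparisons, 12 were lost without the mouse term, and not all of these are named here.

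In Paneth cells the scaling decided the direction of the ferritin calls. Their 10 most abundant genes took 82.6% and 81.9% of all UMIs, and their TMM factors were 0.156 and 0.121. By share of UMIs, Fth1 and Ftl1 were lowest in Paneth cells in both mice. After TMM scaling Fth1 stood at 5533 and 4196 scaled CPM there and was called higher by a log2 fold change of 0.96 (edgeR adjusted p = 1.7e-07), and Ftl1 was called higher by 1.19 (adjusted p = 2.8e-09). With no scaling factors both were called lower, Fth1 at -2.26 and Ftl1 at -2.01. Whether ferritin mRNA was high or low in Paneth cells therefore cannot be told from these counts. Heph at -2.25 (adjusted p = 0.015) and Tfrc at -0.97 (adjusted p = 0.0088) were lower under TMM scaling as well as per UMI total, but Heph rested on 3 UMIs there and went to 0.11 after thinning. The last place of Paneth cells for Slc11a2 and Tfrc also depended on scaling. After TMM scaling Slc11a2 stood at 9.14 and 9.47 scaled CPM in Paneth cells, against 5.53 and 9.32 in stem cells. Tfrc stood at 20.1 and 30.3 scaled CPM in Paneth cells, against 27.1 and 23.9 in tuft cells.

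The authors split enterocytes into 5 numbered clusters, which differed widely in 5 enterocyte markers (Alpi, Apoa1, Apoa4, Fabp1 and Sis, summed). Their summed level ran from 2097 and 715 CPM in cluster 2 to 63778 and 56243 CPM in cluster 1. Clusters are a description of the same cells, so no test was made. Heph was lowest in cluster 2, at 25.7 and 19.7 CPM, and highest in cluster 1, at 127 and 164 CPM, with 51.3 and 33.0 CPM in cluster 6, 89.8 and 77.8 CPM in cluster 9 and 100 and 82.2 CPM in cluster 3. At the ends Tfrc ran the other way, from 147 and 122 CPM in cluster 2 to 18.6 and 28.3 CPM in cluster 1. It was at 74.8 and 72.2 CPM in cluster 9 and at 59.3 and 110 CPM in cluster 3. Between the ends Tfrc did not follow the order of the markers in either mouse. In both mice the cluster with most enterocyte markers had the most Heph and the least Tfrc, and cluster 2, with the fewest markers, had the least Heph and the most Tfrc, closely followed by cluster 6 at 140 and 121 CPM. The Tfrc level of enterocytes is thus an average over clusters that spanned 18.6 to 147 CPM in replicate 1 and 28.3 to 122 CPM in replicate 2. The 4 clusters of TA cells ranged from 120 to 157 CPM in replicate 1 and from 123 to 174 CPM in replicate 2.

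The storage genes varied less across the same clusters. Fth1 was at 6850 and 4652 CPM in cluster 2, 6315 and 5536 CPM in cluster 9, 9307 and 6507 CPM in cluster 6, 10682 and 7901 CPM in cluster 3 and 10379 and 8250 CPM in cluster 1. Its lowest cluster was thus cluster 9 in replicate 1 and cluster 2 in replicate 2. Ftl1 went from 1189 and 2168 CPM in cluster 2 to 1947 and 3119 CPM in cluster 1, its lowest and highest enterocyte clusters in both mice. Slc11a2 stayed between 24.0 and 35.6 CPM in replicate 1 and between 19.7 and 29.8 CPM in replicate 2, and its cluster order was not the same in the 2 mice. Slc40a1 gave no UMI in cluster 1 in either mouse, which allows up to 0.612 and 3.40 CPM (3 UMIs), and was at 8.0 and 1.97 CPM in cluster 2 and 8.60 and 1.65 CPM in cluster 6. In replicate 1 the exporter was thus below its level in clusters 2 and 6 where Heph was highest, and in replicate 2 the depth could not show such a difference. Median mitochondrial reads moved with the clusters, from 10.2% and 5.89% in cluster 2 to 15.1% and 9.65% in cluster 1, and their part in these differences was not tested.

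**Figure D4:**
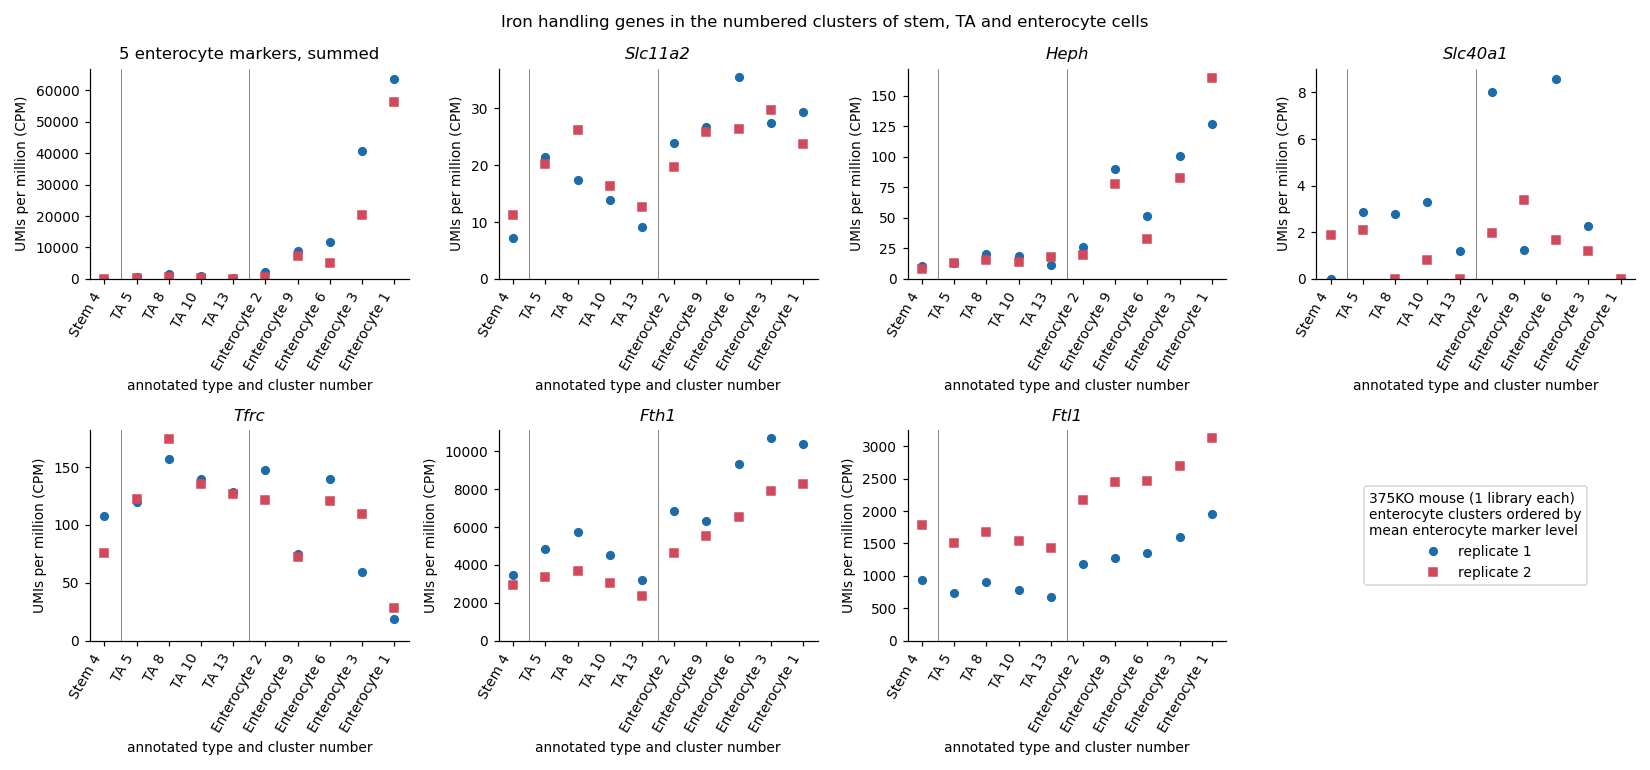
CPM (linear axes from 0) of the summed enterocyte markers and of 6 members in the authors' numbered clusters of stem, TA and enterocyte cells, with a point for each 375KO mouse and enterocyte clusters ordered by their marker level. Heph is highest and Tfrc lowest in enterocyte cluster 1, at the right, and Slc40a1 has no UMI there in either mouse.

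In IEL the ferritin value of replicate 1 turned on cluster 14. Over all 50 cells Fth1 was at 4935 CPM, in the 22 cells of cluster 14 it was at 9039 CPM and in the 28 cells of cluster 11 at 2402 CPM. The corresponding Ftl1 levels were 1401, 2215 and 899 CPM. Fth1 in cluster 11 was close to the 2160 CPM of the IEL of replicate 2, and cluster 14 carried the Lyz2 and Cd68 counts given above, whose part in the Fth1 level was not tested. In replicate 2 the 13 cells of cluster 14 held 130 CPM of macrophage markers, 2606 CPM of IEL markers and 2736 CPM of Fth1. This split was chosen after its values were seen.

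A wider list of 47 genes of iron and heme handling (heme transport, other metal carriers, reductases, iron regulatory proteins, oxygen-sensing factors, mitochondrial iron use and plasma iron proteins) was read in the same fits. Of these, 45 were in the matrices and 30 passed the filter on low counts. In enterocytes against the mean of the other types, 14 of the 30 were higher, 4 lower and 12 did not pass, with a median log2 fold change of 0.40, in a comparison that called 54.5% of all genes and 31.3% as higher. Slc46a1, a folate and heme carrier, was higher by 4.53 (SE 0.47, edgeR adjusted p = 1.7e-09) and Abcg2, an exporter of heme and porphyrins among others, by 2.42 (SE 0.13, adjusted p = 2.1e-16). Epas1, the HIF2 alpha subunit known to drive Slc11a2, Cybrd1 and Slc40a1 transcription in enterocytes, was higher by 2.46 (SE 0.46, adjusted p = 3.4e-05). Slc39a8, a zinc and iron importer, was lower at -2.30 (SE 0.24, adjusted p = 7.3e-10). Epas1 and Slc46a1 rested on few UMIs, 211 and 267 over all epithelial sums. Their levels in enterocytes were 5.89 and 5.98 CPM for Epas1 and 8.62 and 11.2 CPM for Slc46a1. Epas1 was not particular to enterocytes, with 6.08 and 3.13 CPM in goblet cells (23 and 7 UMIs). In EEC it was at 6.44 and 0 CPM (4 and 0 UMIs), and the other epithelial types were at 3.57 CPM or lower.

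**Figure D5:**
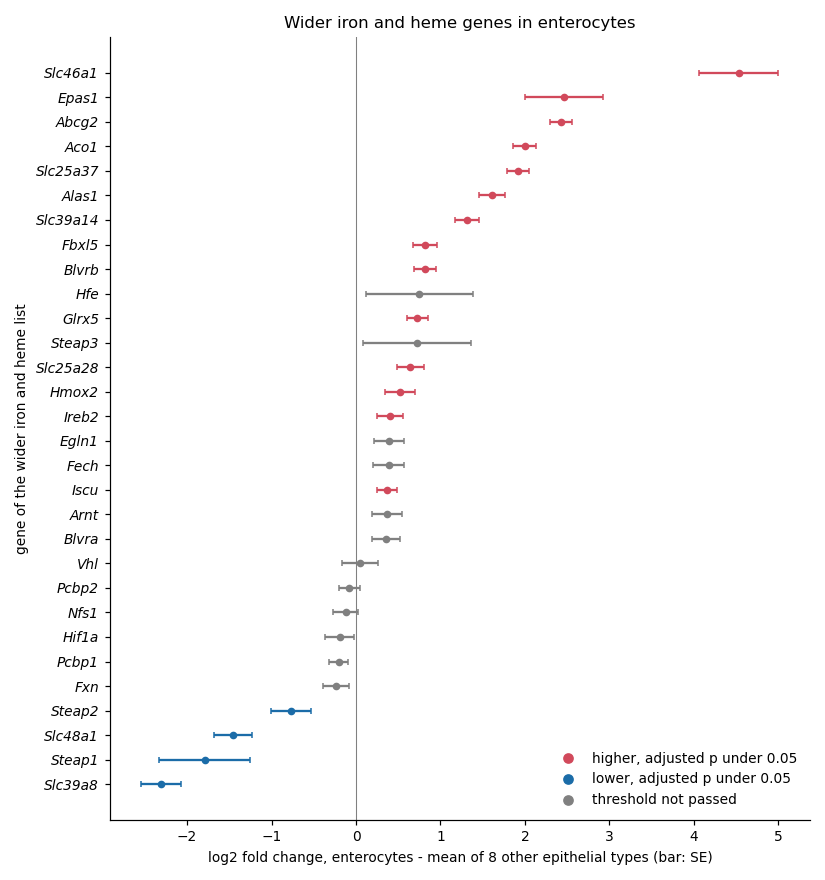
Log2 fold changes (bar, SE) of the 30 tested genes of the wider iron and heme list in enterocytes against the mean of the 8 other epithelial types, coloured by the edgeR call. Slc46a1, at 4.53, is at the top and Slc39a8, at -2.30, at the bottom, with 14 genes called higher and 4 lower.

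Against TA cells, 9 of the 30 were higher in enterocytes, 6 lower and 15 did not pass (median 0.17), close to the 51.7% of all genes called and the 29.1% called higher. Epas1 differed most, by a log2 fold change of 4.33 (SE 0.57, edgeR adjusted p = 2.0e-07), from 0.355 and 0.350 CPM in TA cells, which were only 3 and 2 UMIs. Slc46a1 was higher by 2.91 (adjusted p = 8.5e-07) and Abcg2 by 2.09 (adjusted p = 2.6e-11). Steap1, a member of the STEAP family of metalloreductases that itself lacks the reductase domain, was lower at -2.14 (adjusted p = 4.9e-05). In stem and TA cells against the other types 9 were higher, 5 lower and 16 did not pass (median 0.22), where 40.5% of all genes were called, 23% as higher and 17.6% as lower. Steap3, the endosomal reductase that works with the transferrin receptor, was higher by 1.89 (SE 0.51, edgeR adjusted p = 0.0038), in the same direction as Tfrc. Its levels were 8.41 and 5.61 CPM in stem cells and 10.8 and 7.0 CPM in TA cells. Secretory progenitors, at 10.9 and 0 CPM (5 and 0 UMIs), and goblet progenitors, at 6.14 and 1.80 CPM, overlapped stem cells. EEC had no Steap3 UMI in either mouse. Steap2 was higher by 0.75 (adjusted p = 0.0041), and Hif1a, at -0.85 (adjusted p = 1.9e-04), and Slc39a8, at -0.76 (adjusted p = 0.0014), were lower.

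Across the 18 epithelial sums, which share libraries and depth, the members went together only in part. On the log2 scaled CPM scale the Pearson correlation was 0.77 between Slc11a2 and Heph, 0.67 between Slc11a2 and Fth1, 0.52 between Heph and Fth1, 0.21 between Fth1 and Ftl1 and -0.41 between Tfrc and Ftl1. The genes most like each member by this measure were Selenbp1 (0.93), Zswim7 (0.92) and Pnpla6 (0.92) for Slc11a2, and Pcyt1a, Agpat2 and Gstm4 (0.91 each) for Heph. For Tfrc they were Hspa9 (0.91), Sdc1 (0.91) and Gsdmc2 (0.89). Fbln1 (0.91), Reg3g (0.90) and Cyp27a1 (0.88) were most like Fth1, and Cstb (0.89), Gm10116 (0.88) and Ndufa1 (0.88) most like Ftl1. The difference between the mice was not removed before correlating. Values with Fth1 or Ftl1 therefore also hold the opposite shifts of the ferritin chains between the mice, whose part was not tested. These are descriptions over 2 mice and carry no test.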

How the data were processed

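Both 375KO libraries were made with a 10x Genomics 3′ kit. The authors aligned reads to mm10 with Cell Ranger 3.0.1 and deposited UMI counts per gene and cell; free RNA was removed with SoupX, though which tables this concerns was not given in the sources used here (2.04% and 4.05% of matrix entries were listed as 0). Cells with few detected genes or a high share of mitochondrial reads, and doublets called by scDblFinder, were removed by the authors, who deposited the mitochondrial percent of each cell and their annotation. Annotations carry no barcodes and were joined to the matrices by order, and UMI and gene totals matched in 3275 of 3275 cells. The deposited tables hold 2937 cell columns of another series, which were not used. The sctransform scores and the table of doublet calls were not used.

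Counts were summed per mouse and type (at least 10 cells), filtered with filterByExpr, scaled with TMM and fitted with edgeR 4.0.16 (robust quasi-likelihood, type and mouse as terms, IEL left out). Tests were two-sided with Benjamini-Hochberg adjustment over 11013 genes and a threshold of 0.05. The same mouse gave every type of a replicate number, which is where the pairing comes from. The SE is the log2 fold change over the square root of F, and values within a mouse used a prior count of 2. The residual degrees of freedom (8) come from 2 mice and a spread shared by the types. CPM are UMIs per 1000000 UMIs of the sum, and shares of cells were also taken after thinning to 5000 UMIs, which left out 46 shallower cells. Of these, 39 were IEL of replicate 1. In counts simulated for the first comparison, 94% of 2-fold and 97% of 4-fold changes were recovered. The changed genes were drawn only from those above a set level, and no difference between mice was simulated. These rates therefore do not cover genes at low levels. The members, the wider list and the markers were chosen with earlier results of these data known. Named genes were the 7 members, the 4 genes of the wider list with the largest change past the threshold and the same sign in both mice in each of 3 comparisons, and the 3 genes most like each member.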

Additional observations from a re-analysis of the deposited data

How the results depend on the processing

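Of 28 calls of members over all comparisons, 10 kept their direction and their side of the threshold under RLE factors, DESeq2 1.42.0, no filter, no mouse term, Paneth sums left out, thinned cells, a stricter cell filter (at most 10% mitochondrial reads, at least 2000 genes; 915 and 1057 cells) and UMI totals with no scaling factors, the last chosen after seeing the data. With no replicate block, 12 of the 28 were lost, members called fell from 4 to 2 in enterocytes against TA cells and from 2 to 1 in stem and TA cells, and called genes of the wider list in stem and TA cells fell from 14 to 8. Calls over all 11013 genes fell alongside, from 5694 to 2843 and from 4465 to 2624. The blocked fit pairs sums of the same mouse. Thinning raised the members called in stem and TA cells from 2 to 4 and moved the median of all genes there to 0.25. With no scaling factors that median was 0.54, and 89.4% of all calls were higher instead of 56.7%. In enterocytes against TA cells it was -0.35, and 30.3% were higher instead of 56.3%. Directions turned for Tfrc in enterocytes against TA cells under the stricter filter (0.035); in stem and TA cells for Slc11a2 under the stricter filter (0.093) and UMI totals (0.41), for Heph under UMI totals (0.063) and for Fth1 under RLE factors (-0.011) and DESeq2 (-0.011); and in Paneth cells for Heph after thinning (0.11) and for Fth1 (-2.26) and Ftl1 (-2.01) under UMI totals. Within single mice, without replicate 1 and without replicate 2, Slc11a2 in stem and TA cells was at 0.79 and -0.46 and Fth1 at 0.04 and -0.02. The causes were not tested. Adding pseudogenes to Fth1 and Ftl1 was not run, since the matrices list none, and the cell table holds no phase column. Depth limits Cybrd1, Slc40a1, and EEC, secretory progenitor and IEL values in replicate 2.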
